A study of Mus musculus with 8 samples.

Results

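The nuclear receptors outside the peroxisome proliferator-activated receptor (PPAR) group were examined as a set of 30 genes, listed by name. Earlier results of these data were known when the set was chosen. Of these 30 genes, 22 had a value among the 13349 genes with a value in the series, and 20 could be compared between genotypes. The samples were intestinal organoids, budding epithelial cultures grown from small intestinal crypts in Matrigel with IntestiCult OGM medium and passaged every 5 days. RNA was sequenced from 4 cultures labelled wt (WT) and 4 labelled mg53-tg (MG53-TG), the latter from mice with global overexpression of MG53, the muscle-enriched E3 ligase encoded by Trim72. No injury or drug was given to either group as far as the labels say, and the age of the mice and the promoter of the transgene were not given in the sources used here. The study describes WT littermates as controls, and it also describes organoid transcriptomes from MG53;Lgr5 and Lgr5 mice, which carry an EGFP and Cre allele at Lgr5. The labels name no Lgr5 allele. They also do not say whether the 4 samples of a group came from separate animals, so that the p-values below measure only the spread between these samples, which may be technical.

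Nuclear receptors are transcription factors that bind small lipophilic ligands, such as bile acids, vitamins and steroids, through one domain and DNA through another. Many of them bind DNA as a pair with a retinoid X receptor (RXR), and coactivators or corepressors then set the activity of the target gene. In the intestinal epithelium they are known for sensing what the lumen delivers, including foreign compounds, sterols, vitamin D and retinoids, and several differ between the crypt and the villus.

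The values are FPKM, read fragments scaled to transcript length and library size, which the authors gave for transcript events. A gene was given the sum over its transcription starts or over its transcription ends, whichever was higher on average. Trim72 checked the labels and was listed at 0 or not listed in all 4 WT samples, and the MG53-TG samples held 16.4, 27.4, 31.9 and 36.5 FPKM in order. Markers of cell types also moved with genotype. All 10 enterocyte markers rose, from a summed level of 694 to 812 FPKM in WT to 8555 to 11374 FPKM in MG53-TG, and 7 of 8 stem cell markers fell, from 548 to 733 FPKM to 63.9 to 323 FPKM. Of the Paneth cell markers 6 of 6 tested fell, of the goblet cell markers 5 of 7 fell, and of the enteroendocrine markers 4 of 8 rose. Markers of other cell types were low, and some moved too. The immune sum was 3.77 to 9.24 FPKM in WT and 0.609 to 1.47 FPKM in MG53-TG, mostly Cd68, which fell (log2 fold change -1.84, limma adjusted p = 0.000545), and the nerve and glia sum was at most 0.461 FPKM in WT and 4.45 to 8.19 FPKM in MG53-TG, from S100b, which passed the filter on low values only through MG53-TG. The sums for tuft cells, mesenchyme and endothelium were at most 5.65 FPKM in any sample, with Pecam1, Itgam, Csf1r, Pdgfra, Dclk1 and Sox10 not listed. Of 3 mesenchyme markers tested 2 rose, Col3a1 (log2 fold change 1.16, limma adjusted p = 0.000662) and Col1a2 (1.12, limma adjusted p = 0.00378). Both were at 0 or not listed in all 4 WT samples and passed the filter only through MG53-TG, where the listed values were 0.904 to 1.62 FPKM and 0.739 to 2.07 FPKM. The third marker, Vim, was not called (log2 fold change -0.41, limma adjusted p = 0.126). MG53-TG samples 3 and 4 stood apart from samples 1 and 2 of the same group, with stem cell sums of 99.3 and 63.9 FPKM against 311 and 323 FPKM, and enterocyte sums of 11061 and 11374 FPKM against 9099 and 8555 FPKM. The labels name no batch. In such bulk samples fewer cells of a type and less RNA per cell cannot be told apart, and the part of these cell type markers in the receptor results below was not tested.

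Among the 30 receptors, Rarb, Rora, Rorb, Esrrb, Esr2, Nr2f1, Nr4a3 and Rxrg had no entry in any sample, and Esr1 and Nr6a1 stayed under the filter of a mean of 0.5 FPKM. Esr1, an estrogen receptor, was listed at 0.00805 and 0.00577 FPKM in 2 WT samples and at 0 in the others, and Nr6a1, germ cell nuclear factor, ranged from 0.0219 to 0.759 FPKM in WT and from 0.0220 to 1.82 FPKM in MG53-TG. Of the 19 receptors in the main comparison, 5 rose (Nr1i3, Nr1h2, Nr1i2, Thra and Vdr) and 3 fell (Esrrg, Nr2f2 and Nr2c2) under limma, with adjusted p at or under 0.05. Across the 10397 genes tested, 44.7% were called, 15.6% as higher and 29.2% as lower, so the share of receptors called, 42.1%, was near that background. Of all calls 34.8% were higher, against 50.04% under median-of-ratios scaling and 44.8% under quantile normalization. The median log2 fold change of the 19 receptors was 0.08, beside -0.17 over all genes. The 2 groups did not overlap for the same 8 receptors, where 44.8% of all genes did not overlap, and each of these 8 had an exact two-sided permutation p of 0.0286, the smallest that the design allows. Nr1h3, which the deposited tables assign to another gene, was the 20th receptor and rose in a separate comparison by exon coordinates.

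**Figure D1:**
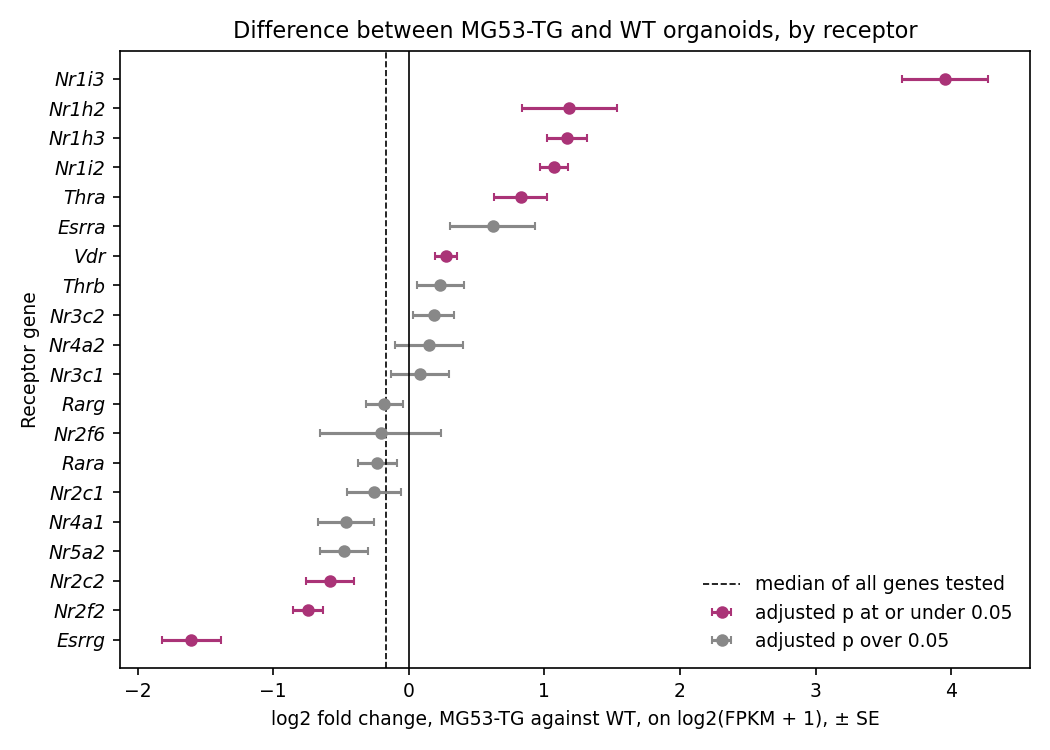
Log2 fold change of each of the 20 receptors between MG53-TG and WT organoids (x axis, on log2(FPKM + 1), points with bars of 1 SE), with the receptors in order on the y axis; Nr1h3 comes from the comparison by exon coordinates. Nr1i3 lies furthest right at 3.96 and Esrrg furthest left at -1.60, and 11 receptors have an adjusted p over 0.05.

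In WT organoids Vdr had the highest level of the receptors, at 55.8 ± 2.53 FPKM (SD, n = 4), followed by Esrra at 38.9 ± 7.60 FPKM. Nr2f6 came next with samples between 6.77 and 27.6 FPKM, then Thra, Nr3c1 and Nr1i2 with means of 17.4, 14.0 and 10.2 FPKM, and the other 14 receptors had means of 1.44 to 6.04 FPKM. The WT samples of Vdr and Esrra did not overlap, while those of Nr2f6 overlapped with those of Thra, Nr3c1 and Nr1i2. In MG53-TG organoids Vdr was again highest, at 67.7 ± 3.43 FPKM, and Nr1i3 had moved from the 15th to the second place, at 64.1 ± 28.0 FPKM. Esrra was next, at 63.8 ± 23.9 FPKM, and the MG53-TG samples of these 3 receptors overlapped. Esrrg had the lowest level there, at 0.745 ± 0.457 FPKM (n = 3).

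**Figure D2:**
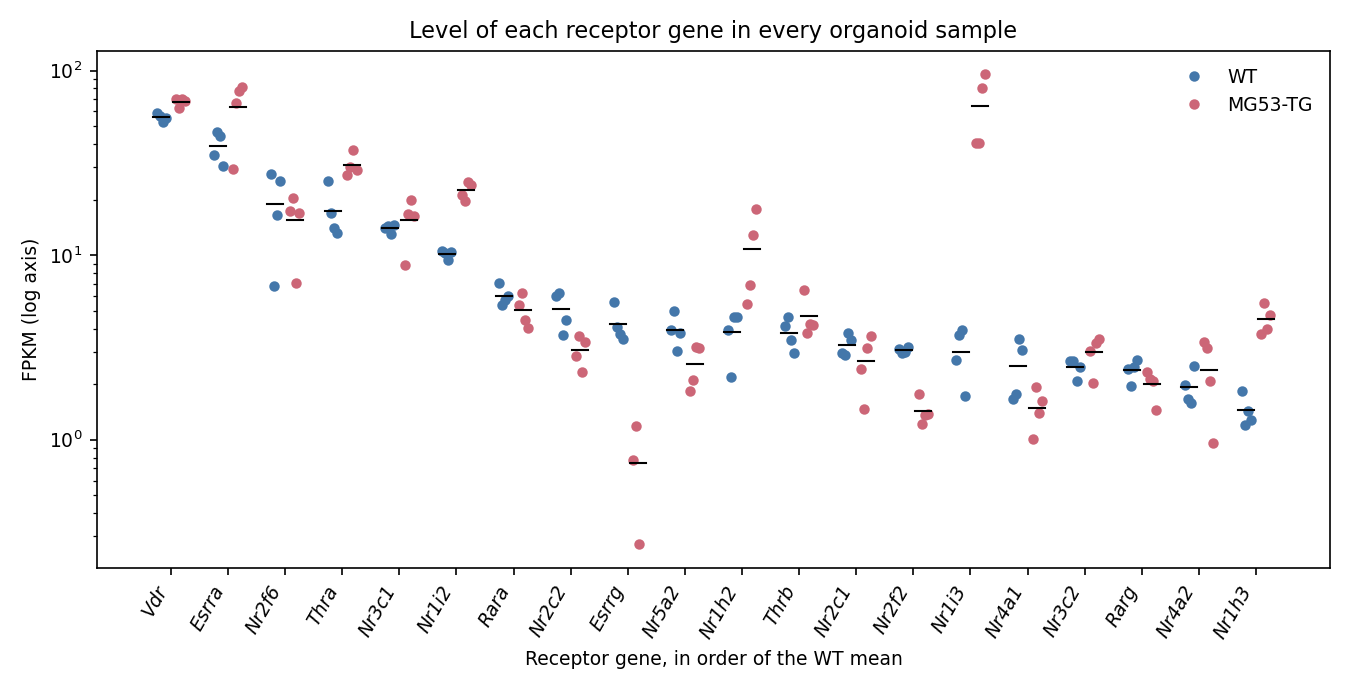
FPKM of the 20 receptors in every sample (y axis, log scale), in order of the WT mean on the x axis, with 1 point a sample and a line at each group mean. Nr1i3 runs from 1.72 to 3.92 FPKM in WT and from 40.4 to 95.4 FPKM in MG53-TG, and Esrrg has 3 MG53-TG points because its starts were not listed in MG53-TG sample 4.

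The receptors for foreign compounds were higher in MG53-TG organoids. Nr1i3 encodes the constitutive androstane receptor (CAR) and Nr1i2 the pregnane X receptor (PXR), both of which induce cytochrome P450 enzymes, conjugating enzymes and drug exporters after binding DNA with RXR. Their promoters are shown together with those of Vdr and Esrrg as examples, picked after their values were seen, from the receptors that were called and had a listed start within 16 bases of a start in RefSeq. Nr1h2 met the same description and is not printed. The 250 bases before the start, from RefSeq on GRCm38.p6, are given 5′ to 3′ on the strand of the gene, with each CG pair in capitals. They lie at chr1:171213720-171213969 (plus strand) for Nr1i3, chr16:38294825-38295074 (minus strand) for Nr1i2, chr15:97908297-97908546 (minus strand) for Vdr and chr1:187997577-187997826 (plus strand) for Esrrg. The start of Vdr listed in these data, at chr15:97908310, lies inside its window. The last 14 bases of the Vdr window therefore belong to an exon of Vdr.
Nr1i3: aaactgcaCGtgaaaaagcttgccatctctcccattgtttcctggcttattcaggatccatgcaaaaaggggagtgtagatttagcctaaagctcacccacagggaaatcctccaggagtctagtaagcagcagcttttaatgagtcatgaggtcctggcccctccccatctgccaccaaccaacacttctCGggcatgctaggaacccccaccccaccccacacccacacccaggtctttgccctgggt
Nr1i2: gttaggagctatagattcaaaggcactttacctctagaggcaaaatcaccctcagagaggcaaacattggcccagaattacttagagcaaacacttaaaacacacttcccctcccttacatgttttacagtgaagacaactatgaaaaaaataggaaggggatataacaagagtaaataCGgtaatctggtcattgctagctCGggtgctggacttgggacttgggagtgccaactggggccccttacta
Vdr: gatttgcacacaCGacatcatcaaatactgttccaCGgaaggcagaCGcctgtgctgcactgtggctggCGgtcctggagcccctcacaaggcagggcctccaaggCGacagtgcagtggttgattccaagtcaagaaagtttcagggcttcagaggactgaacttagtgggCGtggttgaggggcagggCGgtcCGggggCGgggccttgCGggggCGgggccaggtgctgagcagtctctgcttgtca
Esrrg: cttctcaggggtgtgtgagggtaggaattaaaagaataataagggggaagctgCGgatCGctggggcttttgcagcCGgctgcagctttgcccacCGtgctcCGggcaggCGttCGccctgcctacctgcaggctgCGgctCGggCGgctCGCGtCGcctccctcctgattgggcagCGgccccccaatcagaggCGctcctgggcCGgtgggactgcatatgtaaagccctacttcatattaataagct
Nr1i3 and Nr1i2 held 2 CG pairs each, Vdr 11, Esrrg 16 and the unprinted Nr1h2 13, and the median over 32851 promoters of the same length was 6. With so few promoters, chosen in this way, nothing is read from that spread. The nuclear receptor half-site was searched as AGGTCA and as AGTTCA on both strands, and either form was present in 24.2% of all promoters and in 11 of the 44 promoters listed for 28 of the receptors. In the 4 sequences above it was found once, as AGTTCA on the other strand of Vdr, starting 91 bases before the start. Direct repeats, with a second AGGTCA following the first after 1 or after 4 bases of any kind, were searched on both strands too. They were present in 0.0335% and 0.0152% of all promoters, and these letters were not in the 4 windows.

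Nr1i3 (chr1:171213970-171220701, plus strand) was at 2.70, 3.68, 3.92 and 1.72 FPKM in the 4 WT samples whereas the MG53-TG samples held 40.4, 40.4, 80.1 and 95.4 FPKM. The groups were far apart, and MG53-TG samples 3 and 4 were the highest. The mean rose 21.3-fold, and the log2 fold change was 3.96 (SE 0.32, limma adjusted p = 3.42e-05). With MG53-TG samples 1 and 2 only, it was 3.41 (limma adjusted p = 0.000201). Transcripts began at 2 places. The upstream start, at chr1:171213986, held 1.43 to 2.64 FPKM in WT and 14.1, 17.6, 29.0 and 67.4 FPKM in MG53-TG. The downstream start, at chr1:171214349, held 0.197 to 1.32 FPKM in WT and 26.3, 22.8, 51.1 and 28.0 FPKM in MG53-TG. Both starts rose, with log2 fold changes of 3.08 (SE 0.45) and 4.26 (SE 0.31) and limma adjusted p of 0.00182 and 7.26e-05 over 14177 start events, and the downstream start was the higher of the pair in 3 of 4 MG53-TG samples and in none of the WT samples.

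Nr1i3 transcripts also differed in their splicing, which is given as a description because the features were chosen after their values were seen. An intron of 92 bases between coding exons, at chr1:171217222-171217313, was retained in 0.609, 0.00883, 0.00122 and 0.0101 FPKM in WT and in 26.8, 18.0, 36.3 and 38.7 FPKM in MG53-TG. Transcripts with the intron spliced out held 2.06, 3.66, 3.90 and 1.69 FPKM in WT and 11.4, 22.4, 43.7 and 43.2 FPKM in MG53-TG. The retained share was thus 22.8%, 0.241%, 0.0311% and 0.596% in WT and 70.2%, 44.5%, 45.4% and 47.3% in MG53-TG, and the groups did not overlap. Of 8 transcripts of Nr1i3 in the GENCODE annotation, 2 keep this intron. The next intron, of 195 bases, was retained in 8.24% to 34.3% of transcripts in WT and in 17.0% to 29.9% in MG53-TG, which overlapped. An upstream exon of 131 bases was skipped in at most 20.2% of transcripts in WT and in 47.0%, 34.2%, 20.4% and 12.0% in MG53-TG, which overlapped as well. The WT shares rest on fewer than 4 FPKM of transcripts, at a depth that is unknown.

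**Figure D3:**
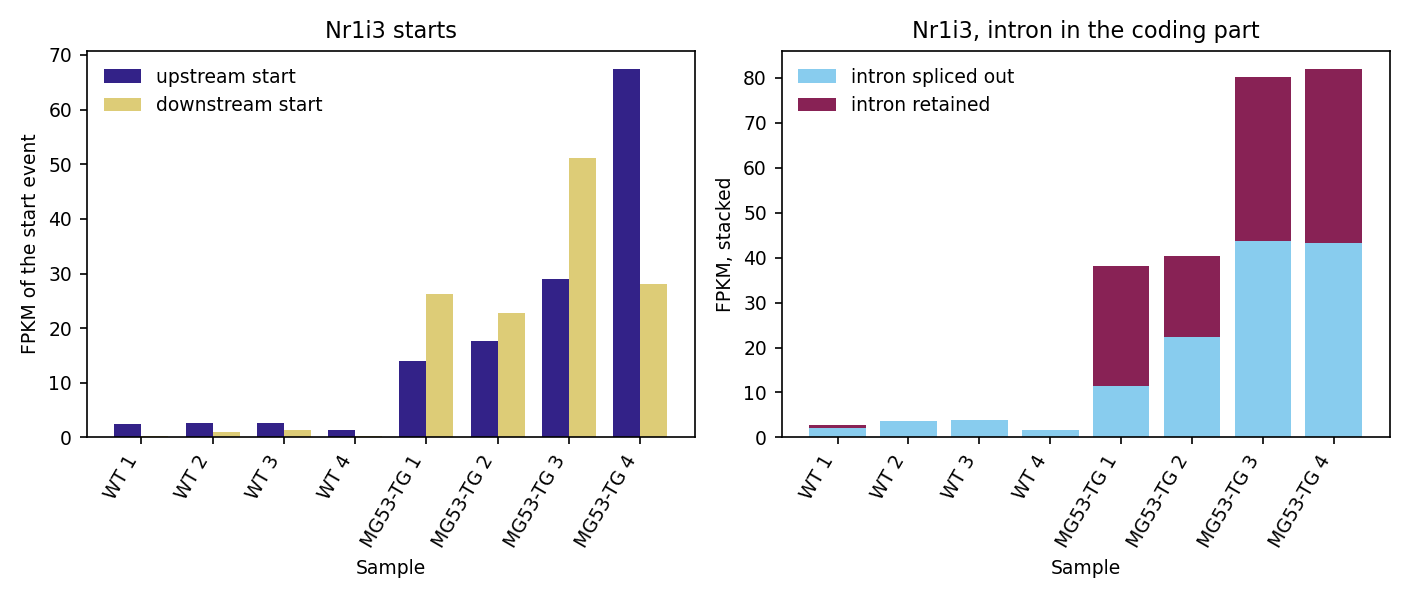
Nr1i3 in each of the 8 samples (x axes), with FPKM on both y axes. The left panel gives the upstream and the downstream start side by side, and the right panel stacks transcripts without and with the 92-base intron, where the retained part is 18.0 to 38.7 FPKM in MG53-TG and at most 0.609 FPKM in WT.

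The neighbour that overlaps Nr1i3 bears on how its reads could have been assigned. Tomm40l, which encodes a mitochondrial import protein, lies on the opposite strand and shares 4691 bases with Nr1i3, including the whole of both introns in exons of Tomm40l, and whether the libraries kept strand was not given in the sources used here. Tomm40l was at 6.02 to 7.83 FPKM in WT and at 6.35 to 10.2 FPKM in MG53-TG, with overlap, and the part of its reads in the Nr1i3 values was not tested. Apoa2, an apolipoprotein gene that begins 4352 bases after the end of Nr1i3 on the same strand, rose from 0.186 to 0.849 FPKM in WT to 7.82, 7.25, 26.2 and 25.5 FPKM in MG53-TG. Pcp4l1, which ends 17701 bases before Nr1i3 and passed the filter only through MG53-TG, was at most at 0.223 FPKM in WT and at 2.54, 2.86, 5.72 and 5.94 FPKM in MG53-TG. For Nr1i3, Apoa2 and Pcp4l1 alike, MG53-TG samples 3 and 4 were the highest. The same was true of the enterocyte sums above and of Cyp3a11 below, so the pattern is not particular to these neighbours.

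Nr1i2 (chr16:38248323-38294824, minus strand), measured at its ends, was at 10.5, 10.3, 9.43 and 10.4 FPKM in WT and at 21.2, 19.7, 25.0 and 24.0 FPKM in MG53-TG. The groups were far apart and the samples of each lay close together. The mean rose 2.21-fold, with a log2 fold change of 1.07 (SE 0.10, limma adjusted p = 9.31e-05). The single start event listed for Nr1i2, at chr16:38294824, matched no exon boundary of the annotation. It held 1.56 and 0.705 FPKM in WT samples 2 and 4 and had no entry in the other 6 samples, so no comparison of it is given. The rise of Nr1i2 rests on its end alone. Vdr, the vitamin D receptor, which controls calcium uptake in the intestine, was at 58.5, 56.6, 52.4 and 55.6 FPKM in WT and at 70.0, 62.7, 69.9 and 68.1 FPKM in MG53-TG. It rose 1.21-fold, the smallest change among the receptors called (log2 fold change 0.27, SE 0.08, limma adjusted p = 0.0207). The call for Vdr was lost without WT sample 3 (limma adjusted p = 0.0535), without MG53-TG sample 3 (0.0548) and without both MG53-TG samples 3 and 4 (0.0591), although the groups did not overlap. Nearly all Vdr signal came from the start at chr15:97908310, with 52.2 to 58.3 FPKM in WT and 62.4 to 69.6 FPKM in MG53-TG.

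Of 15 known target genes of PXR and CAR tested 13 rose, with a median log2 fold change of 1.78. The other 2 were the exporters Abcc2 (0.99, limma adjusted p = 0.221) and Abcc3 (0.23, limma adjusted p = 0.512). Over all genes tested 15.6% were called higher and 29.2% lower, here and for the lists below. The lists were chosen with earlier results of these data known. All 10 enterocyte markers rose too, with a median of 3.35, and the part of enterocyte content in these targets was not tested. The P450 gene Cyp3a11 went from 14.4 to 18.8 FPKM in WT to 261, 289, 507 and 497 FPKM in MG53-TG, a log2 fold change of 4.43. Cyp3a25 went from 4.39 to 7.23 FPKM to 50.3, 57.8, 127 and 135 FPKM (3.75), and Cyp3a13 from 16.7 to 23.2 FPKM to 90.7, 87.5, 205 and 208 FPKM (2.77). These 3 genes were highest in MG53-TG samples 3 and 4, and they are also genes of the villus. Cyp2b10, the P450 gene best known as a CAR target, rose from a range of 22.4 to 26.6 FPKM in WT to one of 88.8 to 161 FPKM in MG53-TG. It was lower in MG53-TG samples 3 and 4, at 96.4 and 88.8 FPKM, than in samples 1 and 2, at 144 and 161 FPKM. Abcb1a, a drug exporter, rose from 33.4 to 40.2 FPKM to 86.7 to 91.3 FPKM and was level across the MG53-TG samples. Of 10 VDR targets tested, which share Abcc2, Cyp3a11 and Cyp3a13 with that list, 3 rose and 3 fell. The higher count was 6 without MG53-TG sample 2, and the lower count was 1 under median-of-ratios scaling and 1 from end events alone. S100g, the calcium buffer calbindin-D9k, rose from 29.8 to 45.4 FPKM in WT to 50.6, 50.3, 91.8 and 116 FPKM in MG53-TG, and lost the call without WT sample 3 (limma adjusted p = 0.0535), WT sample 4 (0.0531) or MG53-TG sample 3 (0.0552), and with MG53-TG samples 1 and 2 only (0.0716). Cyp24a1, Trpv6 and Trpv5, the defining targets of VDR in the kidney and gut, had no entry.

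The liver X receptors sense oxysterols and raise sterol export. Nr1h3 (LXR alpha, chr2:91184061-91202834, minus strand) was at 1.84, 1.21, 1.43 and 1.29 FPKM in WT and at 3.72, 5.52, 3.99 and 4.75 FPKM in MG53-TG, by exon coordinates. It rose 3.12-fold without overlap (log2 fold change 1.17, SE 0.14, limma adjusted p = 0.000365), in a fit in which 15.5% of 10891 genes were called higher. Nr1h2 (LXR beta, chr7:44549616-44553951, minus strand) was at 3.94, 2.18, 4.61 and 4.64 FPKM in WT and at 5.40, 6.93, 12.9 and 17.9 FPKM in MG53-TG. The groups did not overlap, and the log2 fold change was 1.18 (SE 0.35, limma adjusted p = 0.0235). In MG53-TG sample 4, however, 8.10 FPKM came from an end listed in that sample alone. A further 3.48 FPKM came from an end that held at most 0.0804 FPKM in any other sample. The call for Nr1h2 was lost without WT sample 2 (limma adjusted p = 0.0624), without MG53-TG sample 3 (0.0634) and, at a log2 fold change of 0.59, without MG53-TG samples 3 and 4 together (0.125). Of 10 LXR targets tested 4 rose and 2 fell. The higher count was 2 without WT sample 4 or MG53-TG sample 4. The lower count was 1 without WT sample 1, WT sample 2 or MG53-TG sample 1, 3 or 4, with MG53-TG samples 1 and 2 only, with no filter and under either scaling. Abcg5 and Abcg8, the subunits of the sterol exporter of the brush border, rose from 12.1 to 16.4 FPKM to 88.1 to 93.1 FPKM and from 9.42 to 13.8 FPKM to 51.8 to 67.4 FPKM, with log2 fold changes of 2.59 and 2.30. Fasn, fatty acid synthase, fell from 43.1 to 54.9 FPKM to 14.1 to 20.4 FPKM (-1.49).

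Thyroid hormone receptor alpha, encoded by Thra (chr11:98740638-98769006, plus strand), drives the maturation of the gut epithelium. It was at 25.1, 17.0, 14.1 and 13.2 FPKM in WT and at 27.2, 29.9, 37.2 and 28.8 FPKM in MG53-TG. WT sample 1 came close to the MG53-TG samples without reaching them. The log2 fold change was 0.82 (SE 0.20, limma adjusted p = 0.00924), and with MG53-TG samples 1 and 2 only it was 0.73 (limma adjusted p = 0.0600). The start at chr11:98741811 carried most of it, with 12.5 to 23.7 FPKM in WT and 25.7 to 33.8 FPKM in MG53-TG. Thra shares 1075 bases at its 3′ end with Nr1d1, the clock repressor REV-ERB alpha, on the opposite strand, which rose from 2.92 to 5.34 FPKM to 5.95 to 12.0 FPKM. The part of Nr1d1 reads in the Thra values was not tested. Thrb, the second receptor for the hormone, was at 4.13, 4.62, 3.47 and 2.94 FPKM in WT and at 6.50, 3.80, 4.22 and 4.16 FPKM in MG53-TG, with overlap and a log2 fold change of 0.23 (SE 0.18, limma adjusted p = 0.31). Of 10 genes of the thyroid hormone response 4 rose and 3 fell, with 1 lower when a mean of 2 FPKM was required. Lct, lactase, rose from 0.621 to 1.20 FPKM to 12.1 to 26.8 FPKM (log2 fold change 3.29) and Alpi, intestinal alkaline phosphatase, from 15.3 to 20.6 FPKM to 97.9 to 118 FPKM (2.58), both of which are also enterocyte markers. Klf9, a direct target of thyroid hormone and glucocorticoid receptors, fell from 4.80 to 6.49 FPKM to at most 0.219 FPKM (-2.65), having passed the filter only through WT. Crym, another gene that fell, went from 0.484 to 1.70 FPKM to at most 0.0385 FPKM and also passed only through WT.

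The estrogen-related receptors are orphan receptors that activate genes of mitochondrial respiration, and the 2 that were expressed gave different results. Esrrg (chr1:187608791-188214885, plus strand) was at 5.60, 4.09, 3.72 and 3.53 FPKM in WT whereas MG53-TG samples 1 to 3 held 0.781, 1.18 and 0.272 FPKM. Its starts were not listed in MG53-TG sample 4, which was left out as missing, and its end there held 0.577 FPKM. All MG53-TG values were below all WT values, and the log2 fold change was -1.60 (SE 0.22, limma adjusted p = 0.000966). With the missing value taken as 0 it was -1.80. The start at chr1:187609029 held 0.517 to 2.83 FPKM in WT and was not listed in any MG53-TG sample, while the annotated event at the start chr1:187997827, whose promoter is printed above, held 1.58 to 3.04 FPKM in WT and 0.272 to 1.18 FPKM in 3 MG53-TG samples. An unannotated event at the same position added 0.348 and 0.621 FPKM in WT samples 1 and 4. Esrra was at 34.7, 46.2, 44.3 and 30.3 FPKM in WT and at 29.1, 67.0, 77.1 and 81.7 FPKM in MG53-TG. MG53-TG sample 1 lay below all WT samples and the other 3 above them, and the difference was not called (log2 fold change 0.62, SE 0.31, limma adjusted p = 0.136). Without MG53-TG sample 1 it was 0.95 (limma adjusted p = 0.0031), and with MG53-TG samples 1 and 2 only 0.20 (limma adjusted p = 0.669). Of 18 ERR targets tested 8 rose and 2 fell, with 1 lower under median-of-ratios scaling. Mdh2, of the citric acid cycle, rose from 209 to 237 FPKM to 359 to 484 FPKM (log2 fold change 0.91), and Pdk4, which restrains pyruvate oxidation, from at most 0.602 FPKM to 1.08 to 3.26 FPKM (1.24), having passed the filter only through MG53-TG. Slc25a4, a mitochondrial ADP and ATP carrier, fell from 31.5 to 37.6 FPKM to 11.5, 10.3, 4.68 and 2.62 FPKM (-2.27).

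Of the 4 TR2, TR4 and COUP-TF receptors with a value, Nr2f2 and Nr2c2 fell and Nr2c1 and Nr2f6 were not called. Nr2f2 (COUP-TFII, chr7:70351944-70366735, minus strand), a repressor best known from mesenchyme and veins, was at 3.11, 2.93, 3.00 and 3.18 FPKM in WT and at 1.76, 1.21, 1.36 and 1.38 FPKM in MG53-TG. It fell to 0.467 of the WT mean without overlap (log2 fold change -0.75, SE 0.11, limma adjusted p = 0.000997). The summed level of the 10 mesenchyme markers, of which 3 were tested, was 1.80 to 3.24 FPKM in WT and 1.31 to 5.65 FPKM in MG53-TG. Of these 3 markers 2 rose, Col3a1 and Col1a2, which passed the filter only through MG53-TG. The third, Vim, made up nearly all of the WT sum. It was at 1.80 to 3.24 FPKM in WT and at 0.945 to 2.45 FPKM in MG53-TG, with overlap. Vim was not called (log2 fold change -0.41, limma adjusted p = 0.126), and the part of mesenchymal cells in the Nr2f2 values was not tested. Nr2c2 (TR4), a receptor that competes for direct repeats, was at 5.99, 6.27, 3.69 and 4.45 FPKM in WT and at 2.84, 3.65, 2.32 and 3.37 FPKM in MG53-TG. The lowest WT and the highest MG53-TG sample nearly met, and the log2 fold change was -0.58 (SE 0.18, limma adjusted p = 0.0272). This call was lost without WT sample 1 (limma adjusted p = 0.0741), WT sample 2 (0.0745), MG53-TG sample 1 (0.0537) or MG53-TG sample 3 (0.0711), under median-of-ratios scaling (0.0736) and quantile normalization (0.0784), and with MG53-TG samples 1 and 2 only (0.109). Its relative Nr2c1 (TR2) was at 2.96, 2.86, 3.79 and 3.48 FPKM in WT and at 2.41, 1.47, 3.12 and 3.66 FPKM in MG53-TG, with overlap (log2 fold change -0.26, SE 0.20, limma adjusted p = 0.325). With MG53-TG samples 1 and 2 only, Nr2c1 was called lower (-0.55, limma adjusted p = 0.0475). Nr2f6, another COUP-TF relative, had the largest SE of the receptors tested on the log2 scale, with 27.6, 6.77, 16.5 and 25.2 FPKM in WT and 17.4, 20.4, 7.08 and 17.0 FPKM in MG53-TG (log2 fold change -0.21, SE 0.45, limma adjusted p = 0.731).

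The retinoic acid receptors mediate the action of the vitamin A derivative. Rara was at 7.05, 5.40, 5.72 and 5.99 FPKM in WT and at 5.39, 6.25, 4.45 and 4.03 FPKM in MG53-TG. Rarg was at 2.43, 1.95, 2.47 and 2.70 FPKM in WT and at 2.33, 2.12, 2.09 and 1.45 FPKM in MG53-TG. The groups overlapped for both, with log2 fold changes of -0.23 (SE 0.14) and -0.18 (SE 0.14) and limma adjusted p of 0.218 and 0.311. One minor start of Rara, at chr11:98927818, was listed at 0.781, 0.879, 0.958 and 0.248 FPKM in WT and in none of the MG53-TG samples, and was singled out after its values were seen. Of 5 RAR targets and retinoid genes tested 2 rose and 1 fell. Rbp2, the retinol-binding protein of enterocytes, rose from 12.3 to 18.8 FPKM to 143 to 217 FPKM (log2 fold change 3.45), and Dhrs3, a retinal reductase, from 4.17 to 4.90 FPKM to 10.9 to 18.4 FPKM (1.47). Tgm2, a transglutaminase, fell from 19.8 ± 0.288 FPKM to 14.3 ± 0.555 FPKM (SD, n = 4, log2 fold change -0.44) and lost that call under median-of-ratios scaling (limma adjusted p = 0.059). The 3 Cyp26 genes, which clear retinoic acid and answer to it, had no entry.

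The corticoid receptors did not pass the test. Nr3c1, the glucocorticoid receptor, was at 14.1, 14.4, 13.0 and 14.6 FPKM in WT and at 8.87, 16.7, 19.9 and 16.4 FPKM in MG53-TG, so that MG53-TG sample 1 was the lowest of all 8 and the other 3 were the highest (log2 fold change 0.08, SE 0.21, limma adjusted p = 0.778). Nr3c2, the mineralocorticoid receptor, was at 2.66, 2.67, 2.09 and 2.48 FPKM in WT and at 3.04, 2.02, 3.33 and 3.53 FPKM in MG53-TG (log2 fold change 0.18, SE 0.15, limma adjusted p = 0.356). Of 12 corticoid targets 3 rose and 5 fell, against 1 and 2 from end events alone. Ddit4, an inhibitor of mTORC1 induced by glucocorticoids and stress, fell from 137 to 172 FPKM to 24.4 to 38.9 FPKM (log2 fold change -2.24).

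The NR4A receptors are immediate early genes that need no ligand, and neither of the 2 that were listed was called. Nr4a1 (Nur77) was at 1.67, 1.77, 3.49 and 3.05 FPKM in WT and at 1.01, 1.92, 1.40 and 1.63 FPKM in MG53-TG (log2 fold change -0.46, SE 0.21, limma adjusted p = 0.098). Nr4a2 (Nurr1) was at 1.99, 1.67, 1.59 and 2.51 FPKM in WT and at 3.40, 3.13, 2.08 and 0.961 FPKM in MG53-TG (log2 fold change 0.15, SE 0.25, limma adjusted p = 0.657). With MG53-TG samples 1 and 2 only, Nr4a2 was called higher (log2 fold change 0.55, limma adjusted p = 0.0363). Of 10 other immediate early genes tested 7 fell, with a median log2 fold change of -0.76. Ier3 fell from 35.9 to 74.0 FPKM to 7.68 to 9.95 FPKM (-2.44), Dusp1, a phosphatase of MAP kinases, from 2.44 to 5.02 FPKM to 0.842 to 0.966 FPKM (-1.25), and Fos from 5.27 to 9.57 FPKM to 2.22 to 3.26 FPKM (-1.03). As for Nr4a1, WT samples 3 and 4 held the highest levels of all 3 genes.

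Nr5a2 encodes LRH-1, a receptor of the crypt that promotes proliferation and local steroid synthesis. It was at 3.91, 4.96, 3.04 and 3.79 FPKM in WT and at 1.83, 2.10, 3.16 and 3.13 FPKM in MG53-TG. The groups overlapped only at WT sample 3, and the difference just missed the threshold (log2 fold change -0.48, SE 0.18, limma adjusted p = 0.0551). It was called without WT sample 3 (limma adjusted p = 0.0449), without MG53-TG sample 3 (0.0497), without MG53-TG sample 4 (0.0473) and, at a log2 fold change of -0.72, with MG53-TG samples 1 and 2 only (0.0183). Of 7 LRH-1 targets tested 4 rose and 3 were not called. The cell cycle genes Ccnd1 and Ccne1 were among those not called, with log2 fold changes of -1.19 (limma adjusted p = 0.0883) and -0.85 (limma adjusted p = 0.181), and 1 target of the list was called lower without MG53-TG sample 1 or without MG53-TG sample 2. Those that rose included Abcg5, Abcg8 and Scarb1, the HDL receptor, which went from 23.1 to 26.6 FPKM to 40.2 to 50.5 FPKM (0.81).

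The partners of these receptors moved in opposite directions. Rxra, the RXR of epithelia, was at 11.4, 11.9, 10.3 and 12.0 FPKM in WT and at 19.6, 18.7, 25.7 and 23.1 FPKM in MG53-TG, and rose without overlap (log2 fold change 0.87, SE 0.12, limma adjusted p = 0.00067). Rxrb was at 12.7, 13.3, 11.9 and 12.7 FPKM in WT and at 10.7, 11.4, 7.83 and 6.85 FPKM in MG53-TG, and fell (-0.45, SE 0.16, limma adjusted p = 0.0443). The call for Rxrb was lost under median-of-ratios scaling (limma adjusted p = 0.097) and quantile normalization (0.0973), with no filter (0.0552), from end events alone (0.075), by exon coordinates (0.0725) and with MG53-TG samples 1 and 2 only (0.156). Leaving out single samples also lost it in 6 of 8 cases, up to 0.11 without MG53-TG sample 3. Of 11 other receptors and partners tested, Rxra and Rxrb included, 5 rose and 3 fell, and the lower count was 1 under either scaling and from end events alone. The largest changes were in Hnf4g, from 14.6 to 16.3 FPKM to 78.0 to 140 FPKM (log2 fold change 2.54), Nr1h4, the bile acid receptor FXR, from 7.13 to 7.68 FPKM to 21.8 to 35.4 FPKM (1.79), and Ppara, from 3.70 to 6.45 FPKM to 10.2 to 18.9 FPKM (1.28). Of 24 coactivators and corepressors 8 fell, 1 rose and 15 were not called, with a median of -0.30, and the share that fell was near the 29.2% of all genes. The 1 that rose was not called without WT sample 1, 2 or 4, without MG53-TG sample 3 or 4, with MG53-TG samples 1 and 2 only, or when a mean of 2 FPKM was required. Carm1, an arginine methyltransferase that acts as a coactivator, fell from 14.0 to 18.0 FPKM to 6.05 to 10.6 FPKM (-0.89). Pprc1, a relative of PGC-1, fell from 10.4 to 12.5 FPKM to 7.33, 9.36, 2.60 and 2.57 FPKM (-1.05) and lost the call with no filter (limma adjusted p = 0.0531), with MG53-TG samples 1 and 2 only (0.0706) and in 6 of 8 cases when 1 sample was left out.

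**Figure D4:**
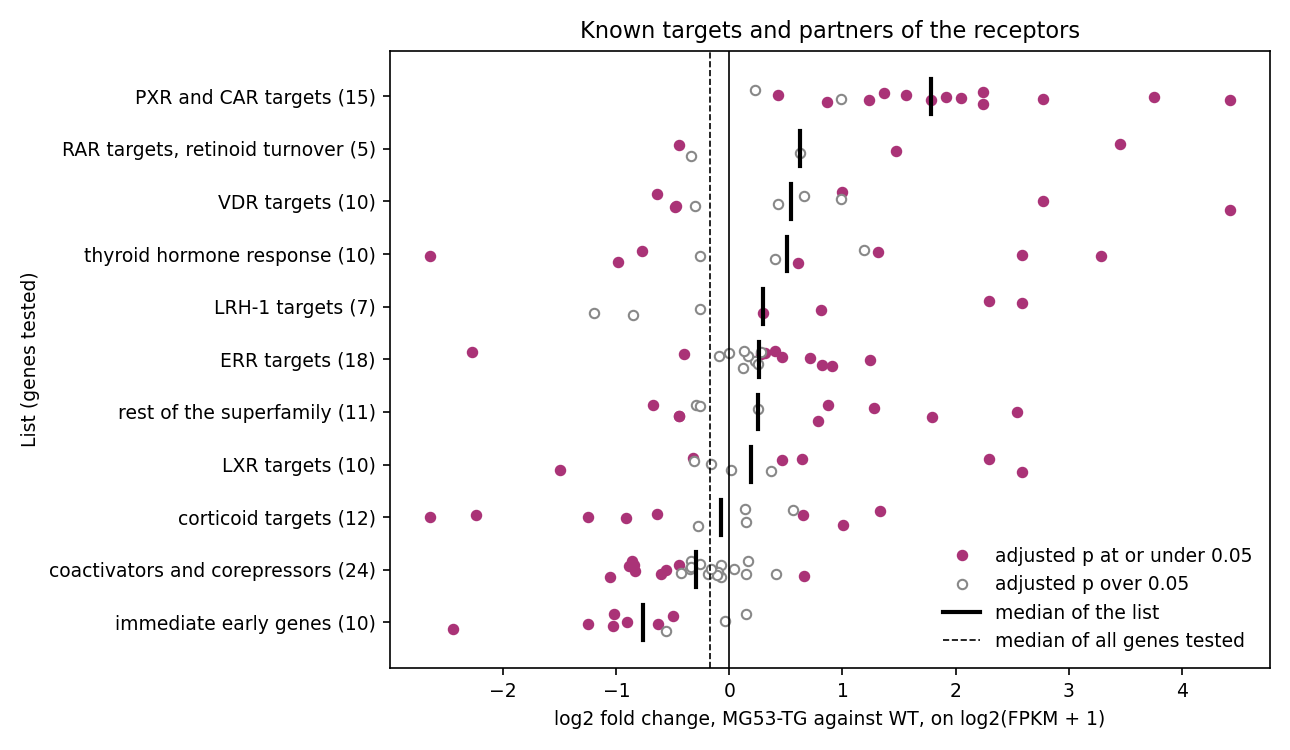
Log2 fold change between MG53-TG and WT organoids (x axis, on log2(FPKM + 1)) of each tested gene in 11 lists of receptor targets and partners (y axis, with the number tested), 1 point a gene, with a bar at the median of each list. The PXR and CAR targets have a median of 1.78, the immediate early genes one of -0.76, and all genes tested one of -0.17.

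Single starts were compared for 18 receptors, where 31 start events were tested. Of these, 5 were higher and 3 lower, or 25.8%, against 29.4% of all 14177 start events. Beside the Nr1i3, Esrrg, Thra and Vdr starts above, these were a start of Thrb at chr14:17659192 that matched no annotated exon boundary, at 0 to 0.956 FPKM in WT against 1.05, 3.00 and 3.16 FPKM in the 3 MG53-TG samples that had a value, and 1 of 2 start events of Nr2f2 at chr7:70360593, at 1.74 to 3.18 FPKM in WT and at 0.923 to 1.38 FPKM in MG53-TG. The other Nr2f2 event at that position, listed at 1.01 and 1.26 FPKM in WT samples 2 and 3 and at 0.837 FPKM in MG53-TG sample 1, was not called (limma adjusted p = 0.101). The Thrb start and the Esrrg start at chr1:187609029 passed the filter on low values only through the group in which they were high, so their calls are no support for a difference, and the Thrb call was lost with absent values as 0 (log2 fold change 0.89, limma adjusted p = 0.219). The 2 Nr1i3 starts were called in all 8 comparisons that left out a sample, and the other 6 starts in 1 to 4 of them, with limma adjusted p reaching 0.107 for Thrb without MG53-TG sample 3. The count of higher starts was 3 without WT sample 2 and 2 without WT sample 3, WT sample 4 or MG53-TG sample 3, and that of lower starts was 1 without WT sample 1, WT sample 4 or MG53-TG sample 4 and 0 without MG53-TG sample 1 or 3. At the gene level Nr1i3, Nr1i2, Nr1h3, Esrrg and Nr2f2 were called in all 8 such comparisons and with MG53-TG samples 1 and 2 only. Overlapping genes on the other strand, Trmt112 for Esrra, Mrps25 for Nr2c2 and Ocel1 for Nr2f6, leave the reads of those receptors uncertain where the exons meet.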

How the data were processed

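Total RNA of 4 WT and 4 MG53-TG organoid samples was sequenced. The labels' processing notes name cutadapt 1.9.1, HISAT2 2.0.1, HTSeq 0.6.1 and mm10, among others. The deposited tables, made by the authors with a tool not given in the sources used here, hold FPKM for 20 types of transcript event. Whole reads could not be recovered, so the depth is unknown, no counting interval was computed and the number of samples limits the precision. Of 49773 start and end events, 85.3% matched an exon boundary of the gene named in the table (GENCODE M21, GRCm38), 6.38% matched no boundary and were kept, and the rest were dropped. An absent value counted as missing where the rest of its group, with absences read as 0, had a median of 0.5 FPKM or more, and as 0 otherwise.

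Values were compared as log2(FPKM + 1), which understates the change of low genes, with limma 3.58.1 (lmFit, eBayes with trend) in R 4.3.3. Genes averaging 0.5 FPKM or more entered, p-values were adjusted by Benjamini-Hochberg over all of them, and the threshold was 0.05. The fit was tested on simulated data. Tables were made with Python 3.11.15, numpy 2.4.6 and pandas 2.3.3. Named were all members, up to 3 genes a list with the largest change among called genes whose groups did not overlap, Rxra, Rxrb and Trim72. Abcc2, Abcc3, Abcb1a, Cyp2b10, Crym, Ccnd1, Ccne1, Cd68, S100b, Col3a1, Col1a2, Vim and the neighbours of Nr1i3 and Thra were named after their values were seen. Some genes that the rule names are not reported here. The members and lists were chosen with earlier results of these data known. Alternatives were a pseudocount of 0.1, no filter, a filter at 2 FPKM, 2 other scalings, a replicate block, leaving out samples, absent values as 0, start or end events alone and exon coordinates. Promoters are from RefSeq, in which 28 of 30 receptors were found.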

Additional observations from a re-analysis of the deposited data

Results flagged for a closer look

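Thrb was at 6.50 FPKM in MG53-TG sample 1, far from the other 3 samples of its group at 3.80 to 4.22 FPKM, and this was the only sample of the receptors that stood apart by Dixon's ratio among 39 groups of 4 samples, where chance alone gives about 1 in 20. Retention of the 92-base intron of Nr1i3 was seen in the splicing events, which the comparisons of genes and starts do not use. The mean retained share was 51.9% in MG53-TG. In WT it was 22.8% in sample 1 and at most 0.596% in the other 3 samples, so that the WT mean of 5.92% rests on sample 1. Neither result was tested further.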

How the results depend on the processing

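Under the alternatives, 3 to 6 receptors were higher and 2 to 4 lower when 1 sample was left out, with 3 higher without MG53-TG sample 3, and 3 were higher with MG53-TG samples 1 and 2 only, a setting chosen after seeing the data. Of the start events of receptors, 2 to 7 were higher and 0 to 2 lower when 1 sample was left out, 2 were higher and 1 lower with MG53-TG samples 1 and 2 only, and 1 was lower with a mean of at least 2 FPKM, where fewer events are tested. The counts over all pathway lists, 43 higher and 32 lower, stayed within 1.5 times of these under every setting run. Nr3c1 turned to -0.47 from start events alone and to -0.18 with MG53-TG samples 1 and 2 only, and ranged from -0.0511 without MG53-TG sample 3 to 0.31 without MG53-TG sample 1. Nr2f6 turned to 0.15 with MG53-TG samples 1 and 2 only and ranged from -0.61 to 0.11 when 1 sample was left out. The cause was not tested.

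With the replicate number as a block, 2 start events were higher, the pair of Nr1i3, and 0 lower, while the other 6 starts lost their calls. Vdr lost its call (limma adjusted p = 0.0558), as did Rxrb (0.0516), and of the LXR targets 2 were higher and 1 lower. Whether the numbers pair the samples could not be decided. The correlation of deviations was over 0.1 in 1 of 4 pairs, and 1 of 4 WT samples correlated best with its own number. With 4 pairs such values cannot exclude a pairing. The paper names a paired t test for its marker genes in the organoid transcriptomes, and the labels name no pairs. Median-of-ratios scaling moved the median of all genes by 0.16 and quantile normalization by 0.12, and the share of calls that were higher went from 34.8% to 50.04% and 44.8%.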
